A study of Mus musculus with 8 samples.

Results

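The transcripts described here are those of 46 genes for collagens, laminins and other matrix glycoproteins, chosen by gene symbol among the 24421 rows of a gene count table. They comprised 5 fibrillar collagen chains, 17 basement membrane genes and 24 other collagens, glycoproteins and matrix enzymes. The table held 8 poly(A) RNA-seq libraries of KPCY cells, mouse pancreatic cancer cells labelled as male, from a study of muscle wasting (cachexia) and fibroadipogenic progenitors in this cancer. The miR-27a knockdown group (4 libraries) came from cells stably transduced with a lentiviral vector that inhibits miR-27a-3p, and the scrambled group (4 libraries) from cells stably transduced with a vector carrying a scrambled sequence. Both lines carried a lentivirus, had been selected for 7 days in 2 µg/mL puromycin, and were sampled 24 hours after seeding in medium with 4.5 g/L glucose and 10% serum. The labels name 1 stable line per group and call the libraries biological replicates, so a p-value below reflects how cultures of the same 2 lines vary, and independent transductions were not compared.

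Collagens are secreted triple helices of 3 chains. The fibrillar types form the tensile fibres of connective tissue, and in pancreatic tumours most of that fibrous matrix is known to be laid down by fibroblasts. A basement membrane is the thin sheet under an epithelium, built from a laminin network that the cells assemble on their surface, a collagen IV network, and nidogens and heparan sulfate proteoglycans between them. Laminins are heterotrimers of an alpha, a beta and a gamma chain, so that a trimer is limited by the chains a cell makes together. A microRNA such as miR-27a-3p lowers a transcript by pairing its seed, bases 2 to 8, with the 3′ UTR.

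The inhibited microRNA and its close relative miR-27b-3p share their seed, shown in capitals in the RefSeq (GRCm38.p6) sequences because it fixes which member transcripts hold a match.
mmu-miR-27a-3p: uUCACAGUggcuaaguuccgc
mmu-miR-27b-3p: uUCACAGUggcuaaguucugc
A seed match was read on the transcript strand of the longest GENCODE vM21 3′ UTR of each gene. It was ACTGTGA, which pairs with the whole seed. A second form, CTGTGAA, pairs with all of the seed but its last base and ends in A. The longest form, ACTGTGAA, contains both and was counted once. Such a match was present in 8 of the 46 members (17.4%), in 4 of the 30 tested members (13.3%) and in 2 of the 19 called members (10.5%), against 3357 of 11359 tested genes with an annotated 3′ UTR (29.6%). The median 3′ UTR was 1004 bases over all members and 1199 bases over all tested genes. The matches of the 4 tested members are printed with their neighbouring bases (GRCm38, transcript strand, match in capitals).
Lamc1, chr1:153220198-153220204, minus strand: cttaagaccacACTGTGAcagttccctgc
Col18a1, chr10:77052595-77052601, minus strand: ctcagtaactcACTGTGAccccagatctg
Agrn, chr4:156165966-156165972, minus strand: cctgtgacaatACTGTGAtatcaaaaaac
Col1a1, chr11:94952508-94952514, plus strand: gtgctacatctCTGTGAAggggtggggtg
Whether miR-27 acts on any of these letters was not measured. The other 4 members with a match, Col5a2, Col6a2, Fbln5 and Lox, had too few counts to be tested. Lamc1 was called lower in the knockdown line, Col18a1 was called higher, and Agrn and Col1a1 were not called, with the values given below. The Mir27a precursor itself had 1 count in 1 knockdown library and 0 counts in the 7 other libraries, so these libraries do not measure how far miR-27a was lowered.

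Library totals were 19165513 to 21735023 counts in the knockdown line and 20021056 to 23542275 counts in the scrambled line. Levels are CPM (counts scaled to library size, with TMM factors), on which a count of 0 allows up to 3 counts or 0.129 to 0.155 CPM, for counting error only. Scrambled replicate 2 stood apart from the other scrambled libraries. The chi-square per gene between replicates was 5.17 to 5.36 for the 3 pairs with that library, against 1.80 to 2.35 for the other scrambled pairs. In it 25 of the 30 tested members lay below the mean of the other 3 scrambled libraries, with a median ratio of 0.910, against 0.999 over all tested genes, so results are also given without it. Markers of ductal epithelium were the most abundant of the marker lists. All 8 ductal epithelial markers were detected, and they summed to 11521 to 11849 CPM in knockdown libraries, against 11791 CPM in scrambled replicate 2 and 10826 to 10928 CPM in the other scrambled libraries. Most of this sum was keratins, and Epcam was low, with 5.62 ± 1.16 CPM in the knockdown and 7.15 ± 1.80 CPM in the scrambled line. Of 9 fibroblast markers 7 had 0 counts in every library, Dcn, Lum, Pdgfrb and Fap among them, and the list summed to 0.273 to 0.716 CPM in knockdown and 0.343 to 0.777 CPM in scrambled libraries. Endothelial markers (2 of 6 at 0) summed to 0.182 to 0.665 against 0.340 to 1.03 CPM, and immune markers (2 of 6 at 0, mostly Cd68) to 2.71 to 4.40 against 3.69 to 4.08 CPM. The 4 acinar markers found in the count table (2 at 0) summed to 2.02 to 3.01 against 2.43 to 3.98 CPM. Amy2a1, also on the acinar list, was not found there. In such bulk RNA, fewer cells that express a gene and less of its RNA per cell cannot be told apart.

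The matrix gene transcripts of both lines were mostly of basement membrane and secreted glycoprotein genes, with few of the 5 fibrillar collagen members. Per kilobase of exon, Spp1, which encodes the secreted phosphoprotein osteopontin, was highest with 1596 CPM per kb in the knockdown and 1661 CPM per kb in the scrambled line. Fbln2, for fibulin that bridges basement membrane and elastic fibres, followed with 153 and 122 CPM per kb. Col4a1 was at 94.8 and 89.8 CPM per kb, Col18a1 at 74.7 and 70.2, Efemp1 at 72.0 and 77.3, and Lama5 at 69.4 and 67.3. At the low end of the tested members were Lama3 at 0.118 and 0.0200 CPM per kb and Col1a1 at 0.109 and 0.0845 CPM per kb. Summed over the 17 basement membrane genes, the level was 4348 ± 75.5 CPM in knockdown and 4128 ± 261 CPM in scrambled libraries (SD, n = 4 each). The 5 fibrillar chains together made 14.1 ± 1.83 CPM in knockdown and 5.51 ± 1.06 CPM in scrambled libraries.

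**Figure D1:**
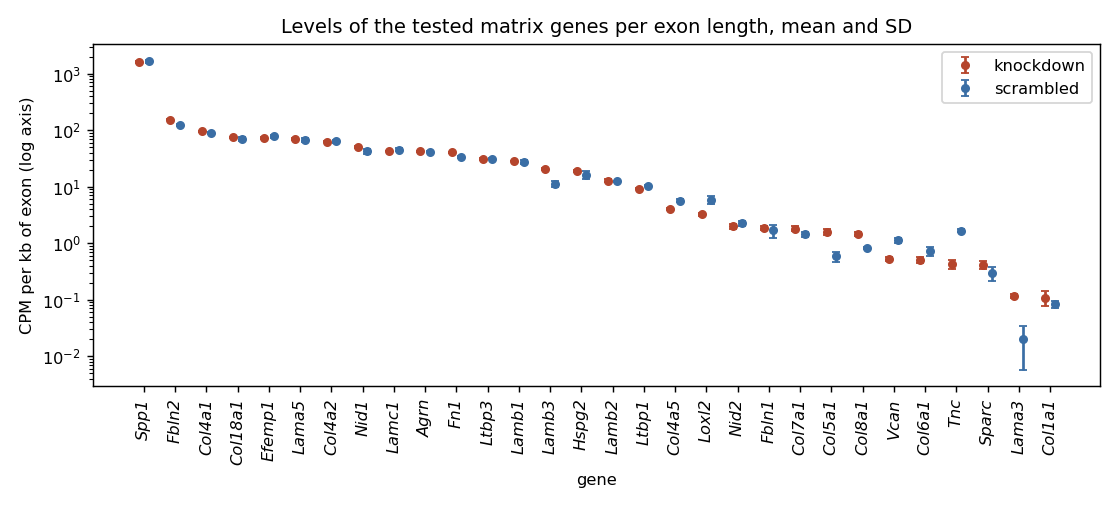
Mean level of each tested member in CPM per kilobase of exon on a log axis, with the knockdown line left of the scrambled line at each gene and bars for the SD over 4 libraries. Spp1 lies highest at 1596 and 1661 CPM per kb, and Col1a1 and Lama3 lie lowest.

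The 16 members that did not pass the filter on low counts were near absent in both lines. Col1a2, Col5a2, Lox (a collagen cross-linking oxidase) and Postn (periostin) had 0 counts in all 8 libraries, and 13 of the 16 had fewer than 10 counts in every library. Col3a1 had 3 counts in 1 knockdown library and 1 count in 1 scrambled library. Bgn, the small proteoglycan biglycan, had 3, 10, 2 and 8 counts in knockdown libraries and 2, 3, 1 and 1 counts in scrambled libraries. Emilin1 had 2 to 9 counts in knockdown and 6 to 12 counts in scrambled libraries, and Col6a2 had 1 to 7 and 7 to 12. The remaining ones were Lama4, Col4a6, Col12a1, Fbln5, Fbn1, Loxl1, Tgfbi and Ltbp2, each with at most 6 counts in any library.

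Among the 30 members tested, 11 were higher and 8 lower in the knockdown line at a Benjamini-Hochberg adjusted p under 0.05 in edgeR's quasi-likelihood test, and 11 were not called. The called share was 63.3%, with 36.7% higher and 26.7% lower. Over all 11797 tested genes 47.9% were called, 23.8% higher and 24.1% lower, so a call alone says little about a gene in this comparison. The groups did not overlap for 16 of the 30 tested members (53.3%), against 42.2% of all tested genes. Lama3 is among these 16 and among the called members, but passed the filter on low counts through the knockdown libraries alone. Its place in the counts and shares of this paragraph is therefore a description. The median log2 fold change was 0.04 over the tested members and 0.0017 over all tested genes, and the median absolute log2 fold change was 0.22 against 0.13. The 7 members called with at least a 1.5-fold difference were Lama3, Col5a1, Lamb3 and Col8a1 higher, and Tnc, Vcan and Loxl2 lower. The share of all tested genes at that size is not given. An absolute log2 fold change of at least 1 was reached by 4 of the 30 tested members, against 358 of 11797 tested genes. At the other end, Col4a1, Col18a1, Lamc1 and Efemp1 were called at under 1.1-fold. Of the 19 called members 8 share exon bases with another annotated gene (Col5a1, Col4a1, Col7a1, Lama3, Nid1, Fn1, Tnc and Loxl2), and their exact values are uncertain. Without scrambled replicate 2 there were 10 members higher and 10 lower, and 18 of these calls were shared with the fit on all libraries. The called share was then 66.7% of tested members, against 50.6% of all 11874 genes tested without that library.

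**Figure D2:**
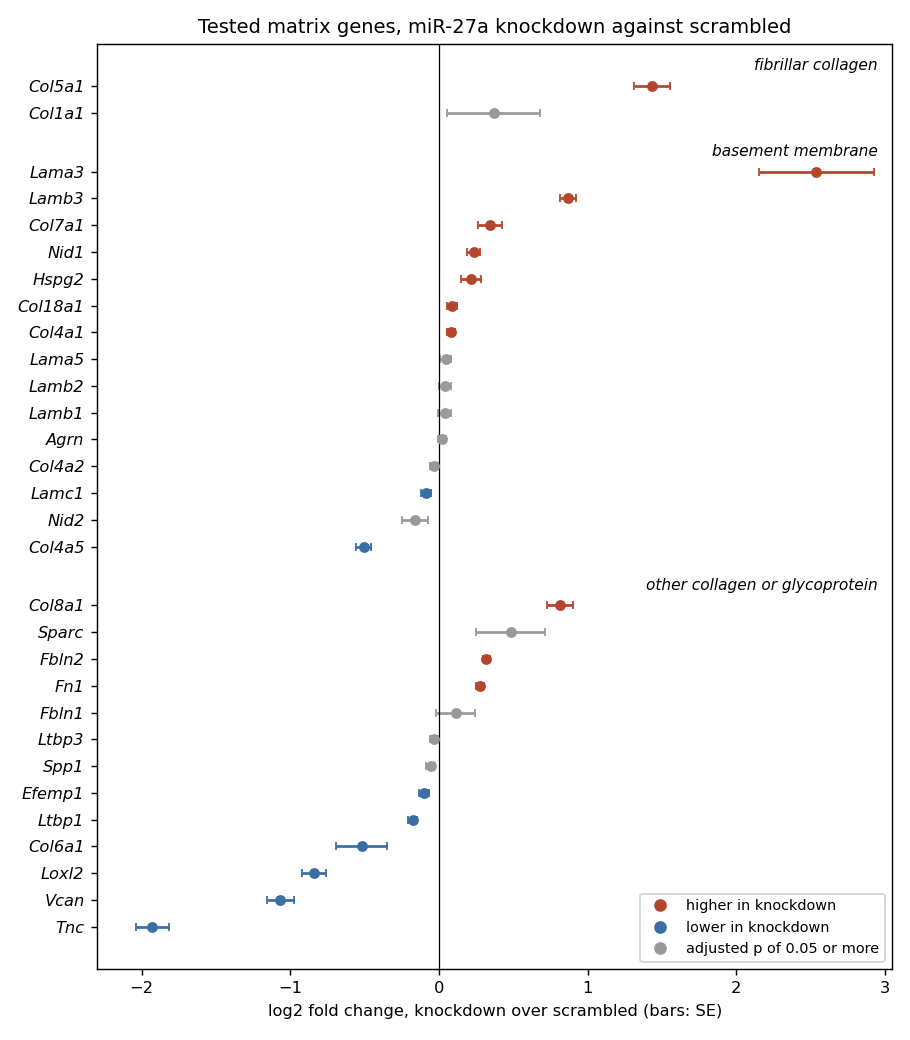
Log2 fold change of each tested member, knockdown over scrambled, with bars for the SE, grouped from top to bottom as fibrillar collagens, basement membrane and other collagens or glycoproteins. Colours mark genes called higher, called lower and not called. Values run from 2.54 for Lama3 to −1.93 for Tnc, and most members lie close to 0.

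Among the 5 fibrillar members nearly all counts came from Col5a1, a chain of the minor fibrillar collagen V that sits inside collagen I fibres and limits their width. Col5a1 (GRCm38 chromosome 2, 27886425 to 28039514) had 11.8, 12.1, 14.5 and 14.9 CPM in knockdown replicates 1 to 4, against 5.48, 3.52, 4.93 and 5.82 CPM in scrambled replicates 1 to 4. Every knockdown library lay above every scrambled one. The mean was 13.3 ± 1.62 CPM in the knockdown and 4.94 ± 1.01 CPM in the scrambled line (SD, n = 4), a 2.70-fold difference (log2 fold change 1.43, SE 0.120, adjusted p = 1.66e-09), and the log2 fold change was 1.31 without scrambled replicate 2. Col5a1 shares 99 and 113 exon bases with a pair of other annotated genes, and reads there cannot be assigned without the strand setting of the counting. Its usual partner chain Col5a2 had 0 counts throughout, and Col5a3 had at most 2 counts in any library.

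Col1a1, a chain of collagen I, the main fibrous collagen of bone, skin and tumour stroma, had only 8 to 19 counts in knockdown and 9 to 14 counts in scrambled libraries. Its level was 0.716, 0.414, 0.868 and 0.866 CPM in knockdown and 0.534, 0.453, 0.600 and 0.631 CPM in scrambled libraries. These groups overlapped, and the difference did not pass the test (log2 fold change 0.37, SE 0.313, adjusted p = 0.349). Col11a1, a fibrillar chain that is a listed pathway gene and not a member, had 21, 9, 11 and 14 counts in knockdown and 2, 3, 6 and 1 counts in scrambled libraries, and was not tested.

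**Figure D3:**
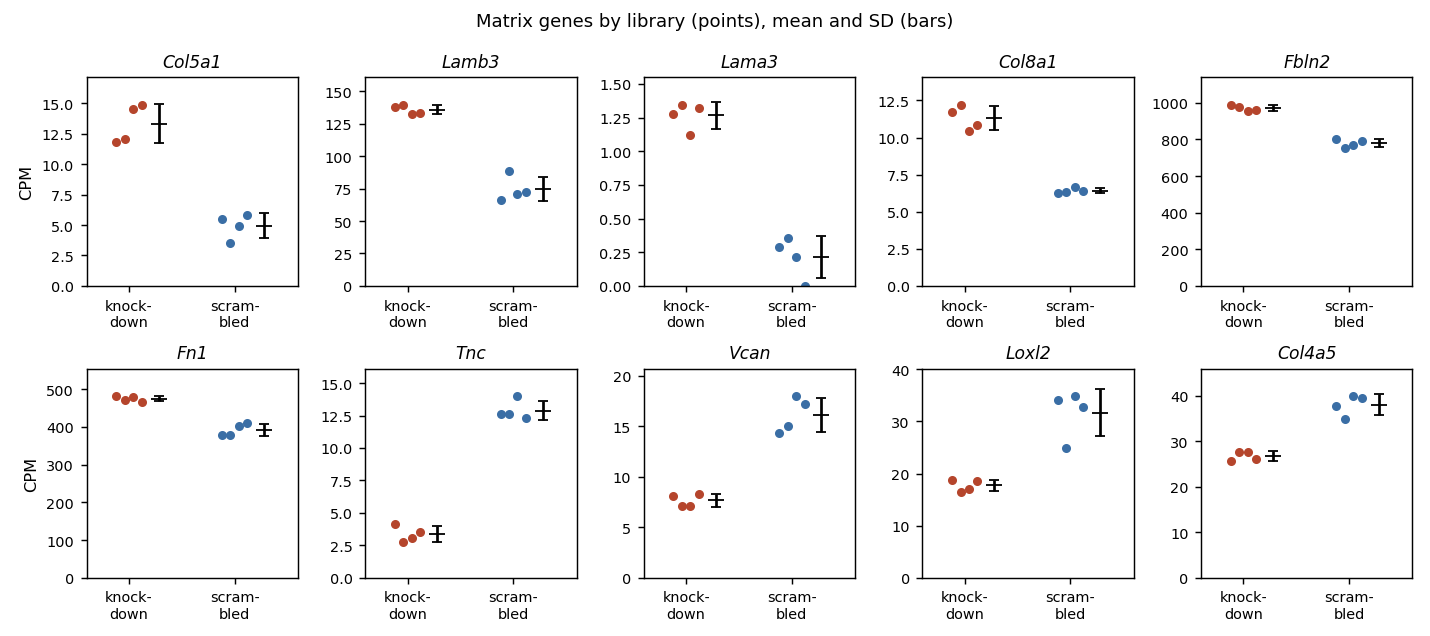
CPM in each library for 10 members with no overlap between groups, 1 panel per gene, with the 4 knockdown libraries left of the 4 scrambled libraries and bars for the mean and SD. Col5a1, Lamb3, Lama3, Col8a1, Fbln2 and Fn1 lie higher in the knockdown line, and Tnc, Vcan, Loxl2 and Col4a5 lower.

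In the basement membrane class 15 of 17 genes were tested, and 7 were higher (46.7% of those tested, against 23.8% of all tested genes), 2 lower (13.3% against 24.1%) and 6 not called. Without scrambled replicate 2 the counts were 6 higher and 3 lower. That library held 3740 CPM of summed basement membrane transcripts, against 4280 to 4456 CPM in knockdown libraries and 4216 to 4292 CPM in the other scrambled libraries. Its median ratio to the other scrambled libraries was 0.895 over the 15 genes. Values without it are given for the genes whose call it moved and for some others.

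The largest differences in the class were in chains of the epithelial anchoring laminin that contains the Lama3 and Lamb3 products and fastens epithelia to hemidesmosomes. Lamb3 (chromosome 1, 193207699 to 193343878) had 138, 140, 132 and 133 CPM in knockdown libraries, against 66.6, 88.3, 71.0 and 72.6 CPM in scrambled libraries. The groups did not overlap, and scrambled replicate 2 was the highest of its group. The means were 136 ± 3.49 CPM in the knockdown and 74.6 ± 9.46 CPM in the scrambled line, 1.82-fold apart (log2 fold change 0.87, SE 0.0534, adjusted p = 8.98e-12, and 0.96 without scrambled replicate 2). Lama3, the alpha chain, was rare, with 25, 26, 22 and 29 counts in knockdown libraries and 6, 7, 5 and 0 counts in scrambled libraries. That is 1.27 ± 0.100 CPM in the knockdown and 0.214 ± 0.154 CPM in the scrambled line, a fitted 5.81-fold difference (log2 fold change 2.54, SE 0.385, adjusted p = 1.03e-05). Lama3 passed the filter on low counts through the knockdown libraries alone, so it had to differ to be tested. Its call, its lack of overlap and its place in the counts of members are descriptions. It shares 197 exon bases with Gm29200. Leaving out single libraries gave log2 fold changes of 2.14 to 2.85, all called.

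The chains of the broadly expressed laminins, which pair the Lama5 alpha chain with the Lamb1 or Lamb2 beta chain and Lamc1, were abundant and close between the lines. Lama5 had 843, 773, 781 and 765 CPM in knockdown and 782, 685, 798 and 800.3 CPM in scrambled libraries. Its groups overlapped and the difference did not pass the test (log2 fold change 0.04, SE 0.0374, adjusted p = 0.344). Lamb1 averaged 282 ± 5.42 CPM in the knockdown and 274 ± 24.1 CPM in the scrambled line (adjusted p = 0.486), and Lamb2 averaged 77.7 ± 5.15 and 75.5 ± 1.95 CPM (adjusted p = 0.453). Lamc1, the gamma chain of these trimers and a member with a miR-27 seed match, had 355, 355, 353 and 349 CPM in knockdown and 386, 344, 396 and 374 CPM in scrambled libraries. Its groups overlapped only through scrambled replicate 2. Lamc1 was called lower by a small margin (log2 fold change −0.09, SE 0.0316, adjusted p = 0.0255). Without scrambled replicate 2 its log2 fold change was −0.13 (adjusted p = 1.18e-06), while its adjusted p was 0.0558 without knockdown replicate 3, 0.0710 without knockdown replicate 4, 0.0920 without scrambled replicate 1 and 0.144 without scrambled replicate 3.

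**Figure D4:**
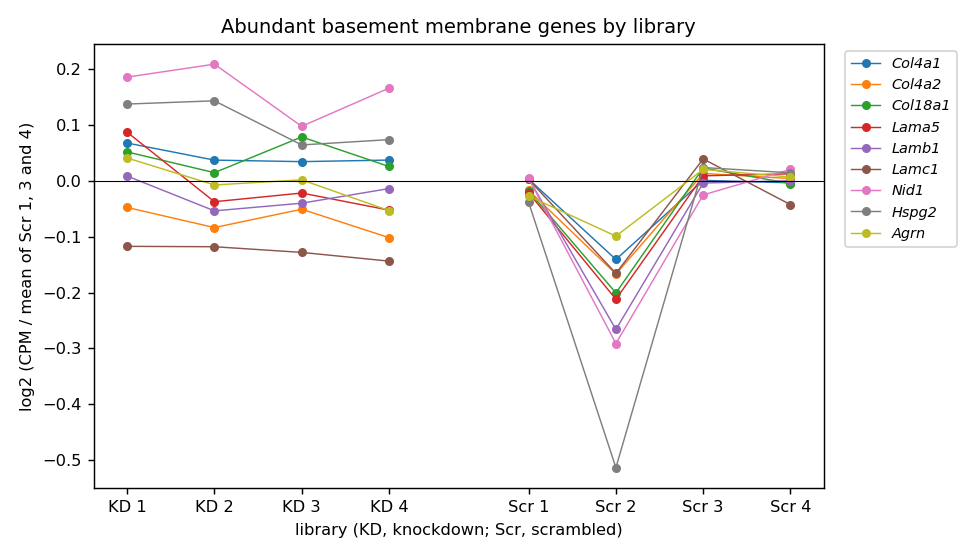
Log2 of CPM over the mean of scrambled replicates 1, 3 and 4 for 9 abundant basement membrane genes, 1 coloured line per gene, with knockdown libraries (KD) left of scrambled libraries (Scr). Scrambled replicate 2 lies below the other scrambled libraries for all 9 genes, furthest for Hspg2 with 175 CPM.

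Collagen IV forms the second network of the basement membrane, in these cells mainly from the Col4a1 and Col4a2 chains. Col4a1 (chromosome 8, 11198423 to 11312826) had 719, 704, 703 and 704 CPM in knockdown and 688, 623, 687 and 685 CPM in scrambled libraries. The groups did not overlap, but the difference was small (means of 708 ± 7.79 CPM in the knockdown and 670 ± 31.9 CPM in the scrambled line, log2 fold change 0.08, SE 0.0270, adjusted p = 0.0210). It was 0.04 without scrambled replicate 2 (adjusted p = 0.0358), and leaving out knockdown replicate 1 ended the call (adjusted p = 0.0701). Col4a2 (chromosome 8, 11312805 to 11449287) had 418, 408, 417 and 403 CPM in knockdown and 427, 385, 436 and 433 CPM in scrambled libraries. It was not called on all libraries (log2 fold change −0.03, adjusted p = 0.424) and was called lower without scrambled replicate 2 (−0.07, adjusted p = 0.00296). Over the 647 tested genes of chromosome 8 the median log2 fold change was 0.21, which lies above the values of both genes.

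The genes Col4a1 and Col4a2 are transcribed away from each other from starts that overlap by 22 bases in the annotation, shown in capitals in the RefSeq sequence because both genes begin there.
Col4a1 and Col4a2 start, GRCm38 chr8:11312801-11312830, plus strand: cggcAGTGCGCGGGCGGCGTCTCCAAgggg
Despite this shared start, the ratio of Col4a1 to Col4a2 counts was 1.72, 1.73, 1.68 and 1.75 in knockdown libraries, against 1.61, 1.62, 1.57 and 1.58 in scrambled libraries. The ratio was higher in every knockdown library than in any scrambled one, scrambled replicate 2 included. The log2 ratio was 0.11 higher in the knockdown line (two-sided exact permutation test p = 0.0286, the smallest that 70 arrangements allow, and 0.0286 after Benjamini-Hochberg adjustment over the 4 pairs tested).

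Col4a5, a collagen IV chain that is also used in specialised basement membranes such as that of the kidney glomerulus, went the other way. Col4a5 (chromosome X, 141475385 to 141689234) had 25.7, 27.7, 27.6 and 26.1 CPM in knockdown and 37.8, 35.0, 39.9 and 39.6 CPM in scrambled libraries. Every knockdown library lay below every scrambled one. The means were 26.8 ± 1.04 CPM in the knockdown and 38.1 ± 2.25 CPM in the scrambled line, 1.42-fold lower (log2 fold change −0.51, SE 0.0532, adjusted p = 5.56e-08). Its neighbour and partner chain Col4a6 had 0 counts in knockdown libraries and 2 counts in 1 scrambled library.

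Among the proteins that link the laminin and collagen networks, Nid1 and Hspg2 were higher in the knockdown line. Nid1, nidogen that binds both networks, had 351, 357, 330.1 and 346 CPM in knockdown and 309, 252, 303 and 313 CPM in scrambled libraries. The groups did not overlap (1.17-fold, log2 fold change 0.23, SE 0.0447, adjusted p = 1.79e-04), and the log2 fold change was 0.17 without scrambled replicate 2. Hspg2, the heparan sulfate proteoglycan perlecan, had 275, 276, 262 and 263 CPM in knockdown and 244, 175, 254 and 253 CPM in scrambled libraries. Its groups were also separate (1.16-fold, log2 fold change 0.22, SE 0.0687, adjusted p = 0.0128), but without scrambled replicate 2 its log2 fold change was 0.10 (adjusted p = 2.19e-04). Agrn, the related proteoglycan agrin with a seed match, averaged 393 ± 10.5 CPM in the knockdown and 388 ± 14.2 CPM in the scrambled line and was not called (log2 fold change 0.02, SE 0.0271, adjusted p = 0.583). Nid2 averaged 10.4 ± 1.09 CPM in the knockdown and 11.6 ± 1.03 CPM in the scrambled line, with overlapping groups (log2 fold change −0.16, adjusted p = 0.142). It shares 437 exon bases with Rtraf, so its exact level is uncertain.

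The remaining basement membrane collagens were both called higher. Col7a1, the chain of the anchoring fibrils that tie the basement membrane to the tissue below, had 17.2, 17.9, 17.7 and 21.4 CPM in knockdown and 12.5, 16.2, 14.4 and 15.7 CPM in scrambled libraries (1.27-fold, log2 fold change 0.34, SE 0.0836, adjusted p = 0.00177). Its groups did not overlap, although the lowest knockdown library lay close to scrambled replicate 2. Col18a1, whose end fragment is endostatin, had 528, 515, 538 and 519 CPM in knockdown and 503, 443, 518 and 508 CPM in scrambled libraries. These groups overlapped, and the small difference (log2 fold change 0.09, SE 0.0339, adjusted p = 0.0326) was 0.04 without scrambled replicate 2 (adjusted p = 0.0661) and also lost its call without knockdown replicate 1, 3 or 4 (adjusted p 0.0760, 0.105 and 0.0506).

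Ratios between genes of 1 library do not depend on how the libraries are scaled. The 8 pairs listed were chains that assemble together or, as for Nid1 and Nid2, genes of the same family. Of these, 4 had both genes past the filter. Besides Col4a1 to Col4a2, the ratio of Lamb1 to Lamc1 counts was 0.811, 0.777, 0.790 and 0.813 in knockdown and 0.744, 0.693, 0.722 and 0.766 in scrambled libraries, 0.13 higher on the log2 scale. The ratio of Nid1 to Nid2 was 33.9, 30.2, 36.1 and 33.7 in knockdown and 26.9, 19.3, 26.7 and 29.6 in scrambled libraries, 0.40 higher on the log2 scale and 0.27 without scrambled replicate 2. Nid2 shares 437 exon bases with Rtraf and Nid1 shares 143 with Gm48682, so the exact value of this ratio is uncertain. Lama3 to Lamb3, with 0.5 added to each count, was 0.00867 to 0.0101 in knockdown and 0.000334 to 0.00473 in scrambled libraries, 2.12 higher on the log2 scale and 1.22 without scrambled replicate 4, which had no Lama3 count. This pair entered through the knockdown libraries alone, as Lama3 did, and its difference is a description. For these 3 pairs the groups were separate and the two-sided exact permutation p was 0.0286, the smallest the design allows, and 0.0286 after adjustment over the 4 pairs. Leaving out any single knockdown library ended the call of all 4 pairs in the exact permutation test (adjusted p = 0.0857 for Lama3 to Lamb3 and 0.0571 for the other 3). Leaving out scrambled replicate 2 ended that of Nid1 to Nid2 (adjusted p = 0.0571). The groups of every pair stayed separate with a library left out. Whether the lost calls reflect dependence on single libraries was not tested.

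**Figure D5:**
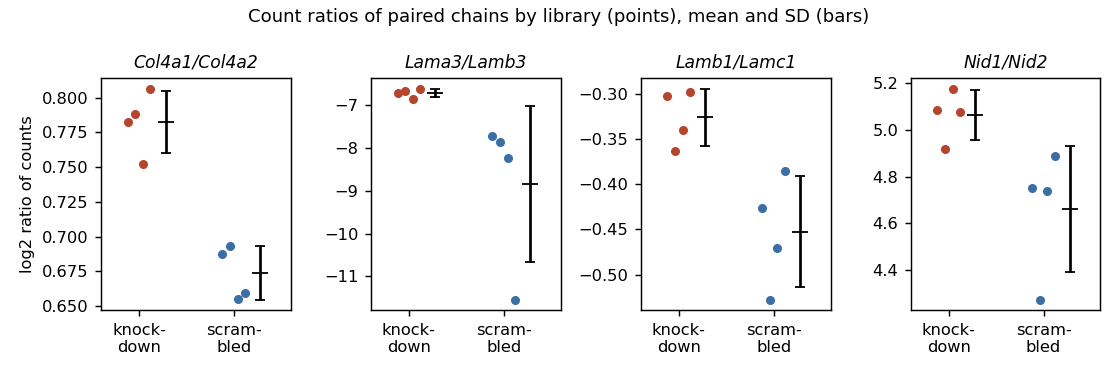
Log2 ratio of the counts of 2 genes in each library for the 4 pairs tested, with knockdown libraries left of scrambled libraries and bars for the mean and SD. In every pair all 4 knockdown libraries lie above all 4 scrambled libraries.

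Of the 24 other collagens and glycoproteins 13 were tested, of which 3 were higher (23.1%, against 23.8% of all tested genes), 6 lower (46.2% against 24.1%) and 4 not called. Without scrambled replicate 2 there were 3 higher and 7 lower. The 6 lower genes were Tnc, Vcan, Loxl2, Col6a1, Ltbp1 and Efemp1, and the 3 higher were Col8a1, Fbln2 and Fn1.

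The largest fall was in Tnc, tenascin-C, a matrix glycoprotein made in development, wounds and tumours. Tnc (chromosome 4, 63959785 to 64047015) had 4.14, 2.74, 3.06 and 3.55 CPM in knockdown libraries, against 12.6, 12.6, 14.0 and 12.3 CPM in scrambled libraries. The groups were far apart. Its means were 3.38 ± 0.611 CPM in the knockdown and 12.9 ± 0.741 CPM in the scrambled line, 3.81-fold lower (log2 fold change −1.93, SE 0.110, adjusted p = 2.1e-12). Vcan, the large chondroitin sulfate proteoglycan versican that binds hyaluronan (chromosome 13, 89655312 to 89742509), had 8.14, 7.14, 7.15 and 8.34 CPM in knockdown and 14.3, 15.1, 18 and 17.2 CPM in scrambled libraries. It was 2.1-fold lower, again without overlap (log2 fold change −1.07, SE 0.0899, adjusted p = 1.79e-09). Tnc shares 176 exon bases with 8030451A03Rik.

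The lysyl oxidase Loxl2, which cross-links collagen, had 18.7, 16.5, 17.0 and 18.6 CPM in knockdown and 34.2, 25.0, 34.8 and 32.8 CPM in scrambled libraries. All knockdown libraries lay below scrambled replicate 2, the lowest of its group (1.79-fold lower, log2 fold change −0.84, SE 0.0826, adjusted p = 2.07e-08). Loxl2 (chromosome 14, 69609068 to 69695834) shares 301 exon bases with Gm27177. Its relative Loxl4, a listed pathway gene, went the other way, with 49.3 ± 1.09 CPM in the knockdown and 19.5 ± 1.61 CPM in the scrambled line (2.52-fold, adjusted p = 3.89e-15). Loxl1 had at most 4 counts in any library.

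Of the non-fibrillar collagens in this class, Col8a1 was higher and Col6a1 lower. Col8a1 encodes a short-chain collagen that forms lattices under endothelia and in the eye. Col8a1 (chromosome 16, 57624258 to 57754737) had 11.7, 12.2, 10.4 and 10.8 CPM in knockdown and 6.26, 6.34, 6.64 and 6.41 CPM in scrambled libraries, with a narrow spread in both groups and no overlap. It was 1.76-fold higher (log2 fold change 0.81, SE 0.0883, adjusted p = 9.32e-08). Col6a1, a chain of the beaded microfibrils around cells, was low, with 2.51, 2.43, 2.04 and 1.91 CPM in knockdown and 2.72, 3.32, 2.74 and 3.98 CPM in scrambled libraries. Its groups were close but separate (1.43-fold lower, log2 fold change −0.52, SE 0.171, adjusted p = 0.0152), and leaving out knockdown replicate 4 or scrambled replicate 4 ended the call (adjusted p 0.0551 and 0.0741).

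Fbln2 and Fn1 had the highest CPM, not scaled by exon length, of the called genes in this class. Both were higher by small and steady margins. Fbln2, fibulin-2 (chromosome 6, 91212455 to 91272540), had 990.4, 980.0, 953 and 963 CPM in knockdown and 801, 756, 769 and 791 CPM in scrambled libraries. The lowest knockdown library lay above the highest scrambled one (1.25-fold, log2 fold change 0.32, SE 0.0224, adjusted p = 8.58e-11). Fn1, fibronectin, the glycoprotein that cells bind through integrins and on which other matrix proteins assemble (chromosome 1, 71585520 to 71653200), had 481, 472, 478 and 466 CPM in knockdown and 378, 379, 401 and 409 CPM in scrambled libraries. It was 1.21-fold higher with no overlap (log2 fold change 0.27, adjusted p = 1.23e-08), and shares 292 exon bases with Apol7d. The other fibulins were mixed. Efemp1, which encodes fibulin-3, had 141, 153, 147 and 146 CPM in knockdown and 162, 147, 160 and 160 CPM in scrambled libraries, with overlap through scrambled replicate 2, and was called lower (log2 fold change −0.10, adjusted p = 0.0128) but not without knockdown replicate 1 (adjusted p = 0.0622). Fbln1 averaged 8.04 ± 0.599 CPM in the knockdown and 7.37 ± 1.91 CPM in the scrambled line (adjusted p = 0.514), and Fbln5 had at most 3 counts.

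Latent TGF-beta binding proteins hold the growth factor TGF-beta in the matrix. Ltbp1 had 101, 97.6, 94.2 and 102 CPM in knockdown and 113, 110.3, 111 and 112 CPM in scrambled libraries, a small fall without overlap (1.13-fold lower, log2 fold change −0.18, adjusted p = 6.23e-05). Ltbp3 averaged 277 ± 8.86 CPM in the knockdown and 284 ± 4.07 CPM in the scrambled line and was not called (log2 fold change −0.03, adjusted p = 0.310). Ltbp2 had at most 6 counts in any library.

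Spp1, the most abundant member, had 2659, 2556, 2755 and 2552 CPM in knockdown and 2706, 2495, 2832 and 2915 CPM in scrambled libraries. The groups overlapped, and it was not called on all libraries (log2 fold change −0.06, SE 0.0334, adjusted p = 0.165). Without scrambled replicate 2 it was called lower (−0.10, adjusted p = 1.19e-05). Sparc, a collagen-binding matricellular glycoprotein, averaged 1.55 ± 0.240 CPM in the knockdown and 1.11 ± 0.310 CPM in the scrambled line, with overlapping groups (log2 fold change 0.48, SE 0.234, adjusted p = 0.0957).

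Related genes outside the 46 were counted from 5 lists. In the list of collagen folding, processing and secretion, 29 of 33 genes were tested, 9 were higher, 9 lower and 11 not called (62.1% called, against 47.9% of all tested genes). Pxdn, the peroxidasin that cross-links collagen IV, had 140 ± 2.66 CPM in the knockdown and 92.5 ± 6.77 CPM in the scrambled line (1.52-fold, adjusted p = 2.25e-11). Fkbp10, a chaperone of collagen in the endoplasmic reticulum, had 11 ± 0.905 and 19.1 ± 1.49 CPM (1.73-fold lower, adjusted p = 2.05e-08), and Tgm2, a transglutaminase that cross-links matrix proteins, 79.6 ± 2.92 and 114 ± 11.5 CPM (1.44-fold lower, adjusted p = 2.06e-08). Of 28 other collagen chains 3 were tested and edgeR called 0, with 0 at an unadjusted p under 0.05. The best measured was Col27a1, with 27.1 ± 1.40 CPM in the knockdown and 27.8 ± 1.91 CPM in the scrambled line.

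Among 18 other laminin and basement membrane genes 5 were tested, with 3 higher and 1 lower (60% and 20%, against 23.8% and 24.1% of all tested genes). The higher genes include Ntn4, named after its values were seen. Ntn4 had 37, 38, 25 and 35 counts in knockdown and 7, 12, 23 and 30 counts in scrambled libraries. Its groups overlapped, and the scrambled libraries alone would not have taken it past the filter, so its place in that count is a description. Npnt, the integrin ligand nephronectin, was higher (536 ± 11.4 CPM in the knockdown and 427.0 ± 22.7 CPM in the scrambled line, 1.25-fold, adjusted p = 6.69e-09), and Tinagl1 was lower (518 ± 9.26 and 569 ± 33.2 CPM, 1.1-fold, adjusted p = 9.15e-04), with overlapping groups. Of 32 other matrix glycoproteins 10 were tested, with 4 higher and 4 lower (80% called, against 47.9% of all tested genes). The lower genes include Tnxb, named after its values were seen. Tnxb had 5, 3, 9 and 5 counts in knockdown and 20, 12, 13 and 27 counts in scrambled libraries. It passed the filter through the scrambled libraries alone, so its place in that count is a description. Igfbp7, which binds insulin-like growth factors and basement membrane, had 232 ± 4.2 CPM in the knockdown and 140 ± 2.72 CPM in the scrambled line (1.65-fold, adjusted p = 3.94e-16), and Matn3, a matrilin of cartilage, 5.80 ± 1.06 and 2.85 ± 0.342 CPM (2.02-fold, adjusted p = 4.96e-06). Efemp2 and Ecm1 were lower by 1.17-fold and 1.11-fold.

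Of 14 non-integrin matrix receptors 10 were tested, with 4 higher and 5 lower (90% called, against 47.9% of all tested genes). Of the 4 syndecans, cell surface proteoglycans that bind fibronectin and laminin, 3 were higher and 1 lower. Sdc1 had 543 ± 11.1 CPM in the knockdown and 439 ± 3.79 CPM in the scrambled line (1.24-fold, adjusted p = 1.23e-10), while Sdc4 had 151 ± 3.97 and 204 ± 5.75 CPM (1.35-fold lower, adjusted p = 2.75e-11). Sdc2 and Sdc3, named after their values were seen, were less abundant. Sdc2 had 1.62 ± 0.0833 CPM in the knockdown and 0.448 ± 0.0616 CPM in the scrambled line (3.56-fold, adjusted p = 2.6e-06). It passed the filter on low counts only through the knockdown libraries, as its scrambled libraries had 10, 8, 12 and 8 counts. Its call, and its place among the higher syndecans and receptors, are therefore descriptions. Sdc3 had 11.6 ± 1.52 CPM in the knockdown and 8.5 ± 0.424 CPM in the scrambled line (1.37-fold, adjusted p = 4.05e-04). The collagen receptor kinase Ddr1 was 1.19-fold higher, and Bcam, a receptor for the Lama5 chain, had 175 ± 7.35 CPM in the knockdown and 214 ± 5.74 CPM in the scrambled line (1.23-fold lower, adjusted p = 4.2e-08).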

How the data were processed

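Deposited values were raw counts for each gene symbol, 1 column for each library, as the authors gave them. The submitters' processing notes list Bowtie, STAR, bcl2fastq 2.20, R 4.2.1, DESeq2 1.36.0 and the build mm10 without saying what each did. Per the labels' protocols, RNA with an integrity number of at least 7 was made into stranded poly(A) libraries with paired reads of 59 bases. How reads were counted, and on which strand, is not given in the sources used here, so overlapping and antisense genes are uncertain.

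All genes were fitted in R 4.3.3 with edgeR 4.0.16 (filterByExpr with minimum count 10 and total 15, TMM, glmQLFit and glmQLFTest on group, Benjamini-Hochberg over 11797 genes, adjusted p under 0.05). The fit was tested on simulated counts. Ratios of paired genes were compared by exact permutation over 70 arrangements. Alternatives were other scalings and filters, DESeq2 1.42.0, voom in limma 3.58.1, stricter thresholds, the replicate block and leaving out each library. The members and lists were chosen with earlier results of these data known. All members were named, and from each other list up to 2 called genes per direction with the smallest adjusted p and a mean of at least 1 CPM. A gene that this rule takes is not reported here. Positions and exon lengths came from GENCODE vM21 on GRCm38, with 23311 symbols matched as current and 642 as older names.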

Additional observations from a re-analysis of the deposited data

Results flagged for a closer look

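In 66 groups of 4 libraries, each with a member reaching 10 counts, the highest or lowest library was compared with the rest by Dixon's criterion, which chance meets in about 1 of 20 groups. The groups that met it lay in 6 members, mostly through scrambled replicate 2. That library was below the other scrambled libraries for Col4a1 (623 against 685 to 688 CPM), Lama5 (685 against 782 to 800.3 CPM), Lamb1 (238 against 286 to 287 CPM), Nid1 (252 against 303 to 313 CPM), Hspg2 (175 against 244 to 254 CPM) and Efemp1 (147 against 160 to 162 CPM). The summed basement membrane level was likewise 3740 CPM in scrambled replicate 2, against 4216 to 4292 CPM in the other scrambled libraries. In the knockdown line, Col4a1 had 719 CPM in replicate 1, against 703 to 704 CPM in the other 3.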

How the results depend on the processing

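No called gene changed direction under the 17 alternative fits. Without scrambled replicate 2, 4 genes that were not called changed sign near 0 and stayed uncalled, with log2 fold changes of −0.005 for Lama5, −0.024 for Lamb1, −0.0044 for Agrn and −0.020 for Fbln1. The members called were 11 higher and 8 lower with DESeq2's size factors, with voom and with at least 1 CPM in 4 libraries, 10 and 8 with DESeq2, 11 and 6 with library totals alone, and 12 and 9 without the filter, where Bgn (adjusted p = 0.0430) and Spp1 (adjusted p = 0.0330) were added. An adjusted p under 0.01 left 5 members lower in all and 4 basement membrane genes higher. A test against a fold of 1.2 left 5 higher and 4 lower in all, 2 higher in the basement membrane and 3 lower among the other glycoproteins. The share of all tested genes called is not given for these settings. The counts therefore do not show how members compare with genes in general. The basement membrane count of lower genes was 1 with library totals alone and with either stricter threshold, and 1 to 3 when single libraries were left out. Of the 30 tested members, 9 were called in all 17 fits. Across member genes, 475 values kept their side of the threshold, 31 lost the call and 3 gained it. Hspg2 lost it with DESeq2 (adjusted p = 0.150), and Lamc1 and Efemp1 with library totals alone (adjusted p = 0.109 and 0.0557).

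Same-numbered libraries did not deviate together (correlations −0.0281 to 0.0170), so no pairing by number was seen in the values. Whether same-numbered libraries were prepared together cannot be told from this. With the replicate block the counts were 11 higher and 8 lower. For the log2 ratios of gene pairs, a paired exact permutation test with the replicate block gave p = 0.125, the smallest of its 16 sign arrangements. The values were 0.11 for Col4a1 to Col4a2, 2.12 for Lama3 to Lamb3, 0.13 for Lamb1 to Lamc1 and 0.40 for Nid1 to Nid2. Leaving out single libraries gave 0.10 to 0.12, 1.22 to 2.50, 0.10 to 0.15 and 0.27 to 0.48 for these pairs, with adjusted exact permutation p of 0.0571 or 0.0857 without any knockdown library and of 0.0286 to 0.0429 without a scrambled library, except 0.0571 for Nid1 to Nid2 without scrambled replicate 2. Low counts limit Col1a1, Lama3 and the members not tested.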
